A study of Mus musculus with 2 samples.

Results

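The regions described are the surroundings of 8 genes, Gata4, Gata6, Sox17, T, Foxa2, Eomes, Pax6 and Cdx2, which code for transcription factors that direct the first lineage decisions of the embryo. A region of 5-hydroxymethylcytosine (5hmC) enrichment, called a peak, was taken as a member if its midpoint lay within 100 kb of 1 of the 8 loci, whose positions on mouse build mm9 were given with the rule. This gave 56 of 57827 peaks in one deposited list and 56 of 63834 in the other, or 112 of 121661 in all. The windows around the loci covered 1748 kb together.

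Both lists came from embryonic stem (ES) cells of mouse strain 129SvEv, and each rested on a single library. The first library was made after 24 h of incubation with 100 µM AA (ascorbic acid, vitamin C). The label of the second names no incubation, and the design of the series, which sets AA against its absence, places it without AA. Fragments holding 5hmC were tagged with biotin, pulled down and sequenced. In 2 of 2 lists the header gives the run name of the other sample, against the record. The names AA-labelled and no-AA-labelled list follow the record, and if the headers hold the truth every stated direction between the lists is inverted. After removal of repeated tags (aligned reads) the AA-labelled library held 11907082 tags and the no-AA-labelled library 18398162, and the fragment length estimated by the peak caller was 229 bp and 165 bp. Depth and fragment length thus differ together with the label. With 1 library per group no test between the groups was possible, and every interval given is a 95% exact interval that covers counting error only or, for a median, only the spread over peaks or pairs.

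5hmC is made from 5-methylcytosine by the Tet enzymes, which use iron and 2-oxoglutarate and whose activity ascorbic acid is known to support. It therefore arises only where DNA carries methylation, mostly at CG dinucleotides. The CG-rich starts of many developmental regulators are known to be largely free of methylation in ES cells while the genes are off. Gata4, Gata6, Sox17 and Foxa2 are regulators of endoderm, T (Brachyury) and Eomes of mesoderm and endoderm at gastrulation, Pax6 of the neural plate and eye, and Cdx2 of trophectoderm and hindgut. The files hold no expression values, so the silence of these genes in the cells used was not measured here.

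The promoters of 5 of the 8 genes (T, Foxa2, Eomes, Pax6 and Cdx2) were found in the RefSeq promoter table of build GRCm38.p6, each as 300 bases around the start of transcription. The first promoters listed for 4 of them are shown, read 5′ to 3′ along the gene with every CG in capitals, because the loci of T and Cdx2 held no peak in either list and those of Eomes and Pax6 held peaks in both.
T: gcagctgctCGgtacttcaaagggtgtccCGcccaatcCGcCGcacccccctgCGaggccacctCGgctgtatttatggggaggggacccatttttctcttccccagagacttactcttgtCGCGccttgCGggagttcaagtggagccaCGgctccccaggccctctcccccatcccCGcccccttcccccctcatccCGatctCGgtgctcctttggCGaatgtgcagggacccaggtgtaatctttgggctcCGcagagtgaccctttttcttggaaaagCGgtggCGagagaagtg
Cdx2: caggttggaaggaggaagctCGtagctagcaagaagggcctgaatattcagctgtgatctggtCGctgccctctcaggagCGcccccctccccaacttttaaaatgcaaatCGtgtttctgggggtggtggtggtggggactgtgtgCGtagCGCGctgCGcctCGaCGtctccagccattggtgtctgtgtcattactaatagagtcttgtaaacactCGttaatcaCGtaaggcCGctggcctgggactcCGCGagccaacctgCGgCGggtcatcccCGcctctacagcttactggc
Eomes: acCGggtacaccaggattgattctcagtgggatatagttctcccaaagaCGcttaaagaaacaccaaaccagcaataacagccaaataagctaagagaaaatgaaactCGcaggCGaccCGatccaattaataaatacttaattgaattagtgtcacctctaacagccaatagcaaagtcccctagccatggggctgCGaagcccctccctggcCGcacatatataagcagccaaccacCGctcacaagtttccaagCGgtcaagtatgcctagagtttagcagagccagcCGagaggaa
Pax6: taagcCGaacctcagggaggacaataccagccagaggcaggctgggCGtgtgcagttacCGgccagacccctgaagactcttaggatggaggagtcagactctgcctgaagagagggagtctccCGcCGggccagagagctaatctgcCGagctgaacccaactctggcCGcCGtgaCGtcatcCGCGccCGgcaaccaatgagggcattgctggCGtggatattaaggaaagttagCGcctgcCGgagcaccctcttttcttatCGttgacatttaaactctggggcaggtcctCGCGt
The dinucleotide CG, which reads the same on both strands, occurred 17 times in the T promoter, 18 times in that of Cdx2, 10 times in that of Eomes and 18 times in that of Pax6. Over all 32851 promoters of the table the median was 7 (quartiles 3 and 20), and 94.6% held at least 1 CG. At least as many as in T were held by 31.4% of them, at least as many as in Cdx2 or Pax6 by 29.7%, and at least as many as in Eomes by 43.5%. The 3 listed starts of Foxa2 held 12, 23 and 13. The counts of these genes lay between the median and the upper quartile, apart from the second start of Foxa2 above it, and the counts of the loci without a peak overlapped those of the loci with peaks. The peaks are placed on mm9 and the promoters on GRCm38.p6, so a peak was not placed within a promoter.

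Each list had 3.20 peaks per 100 kb in the windows (Poisson interval 2.42 to 4.16). The mean over 12062 autosomal windows of 200 kb was 2.33 in the AA-labelled and 2.57 in the no-AA-labelled list, the first just outside that interval and the second inside it. Without Sox17, T, Eomes, Pax6 or Cdx2 the autosomal mean of the AA-labelled list fell inside the interval of the remaining loci. The lower limits then ran from 2.13 to 2.33. Without Gata4, Gata6 or Foxa2 that mean stayed below the interval, whose lower limits were 2.53, 2.57 and 2.52. The densities without each locus, 2.92 to 3.43 in either list, were above both autosomal means. An excess over the autosomes thus depended on the loci counted and was neither shown nor excluded by these counts. With a fold of at least 10 the windows had 0.458 AA-labelled peaks per 100 kb (0.198 to 0.902), against 0.490 over the autosomes. The no-AA-labelled list had 0.343 (0.126 to 0.747) against 0.259 at that fold. With a peak caller p of at most 1e-10 the AA-labelled list had 0.801 (0.438 to 1.34) against 0.522. The no-AA-labelled list had 0.343 (0.126 to 0.747) against 0.462 at that p. Each of these intervals held the autosomal value. Peaks covered 4.08% of the windows in the AA-labelled list and 2.82% in the other, against 2.79% and 2.31% of the autosomal span. Single loci differed widely. Eomes was densest in both lists, with 11 and 11 peaks, or 5.26 per 100 kb (2.63 to 9.42), a density above that of 94.3% of the autosomal windows in the AA-labelled list and 92.7% in the other. Gata6, with 4 and 4 peaks, was the sparsest at 1.71 per 100 kb (0.466 to 4.38), and Foxa2, also with 4 and 4, had 1.95. The medians for autosomal windows were 2.0 per 100 kb in the AA-labelled list and 2.5 in the other. Gata6 and Foxa2 were each above 43.5% of these windows in the AA-labelled list and 36.9% in the other. The intervals of neighbouring loci in this order overlapped throughout, and those of Eomes and Gata6 overlapped too.

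**Figure D1:**
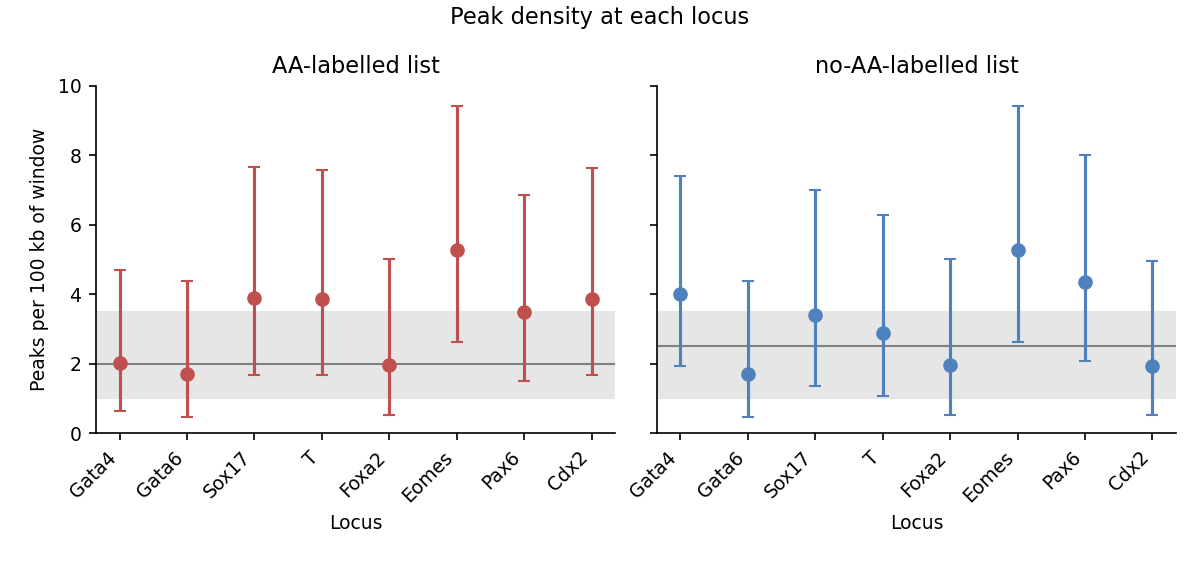
Peaks per 100 kb in the window around each locus, in the AA-labelled list (left) and the no-AA-labelled list (right); bars are 95% Poisson intervals of the count, the grey band gives the quartiles and the line the median of 12062 autosomal windows of 200 kb. Eomes is highest in both lists at 5.26, and the interval of every locus reaches into the grey band.

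The lists held the same number of peaks around the loci. The ratio of 56 to 56 peaks was 1.00 (conditional exact interval 0.678 to 1.47), and that of all peaks was 0.906 (0.896 to 0.916), inside this interval. At 3 loci the lists had equal numbers (Gata6, Foxa2 and Eomes). Around Gata4 there were 5 peaks in the AA-labelled list and 10 in the other (interval of the ratio 0.134 to 1.61), and around Cdx2 8 and 4 (0.536 to 9.08). Sox17 had 8 and 7, T had 8 and 6, and Pax6 had 8 and 10. Thus 2 of 8 loci were 2-fold apart, in opposite directions. Among 7088 autosomal windows of 200 kb with at least 8 peaks in both lists together, 15.4% were 2-fold or more apart. All per-locus intervals included the ratio of all peaks.

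**Figure D2:**
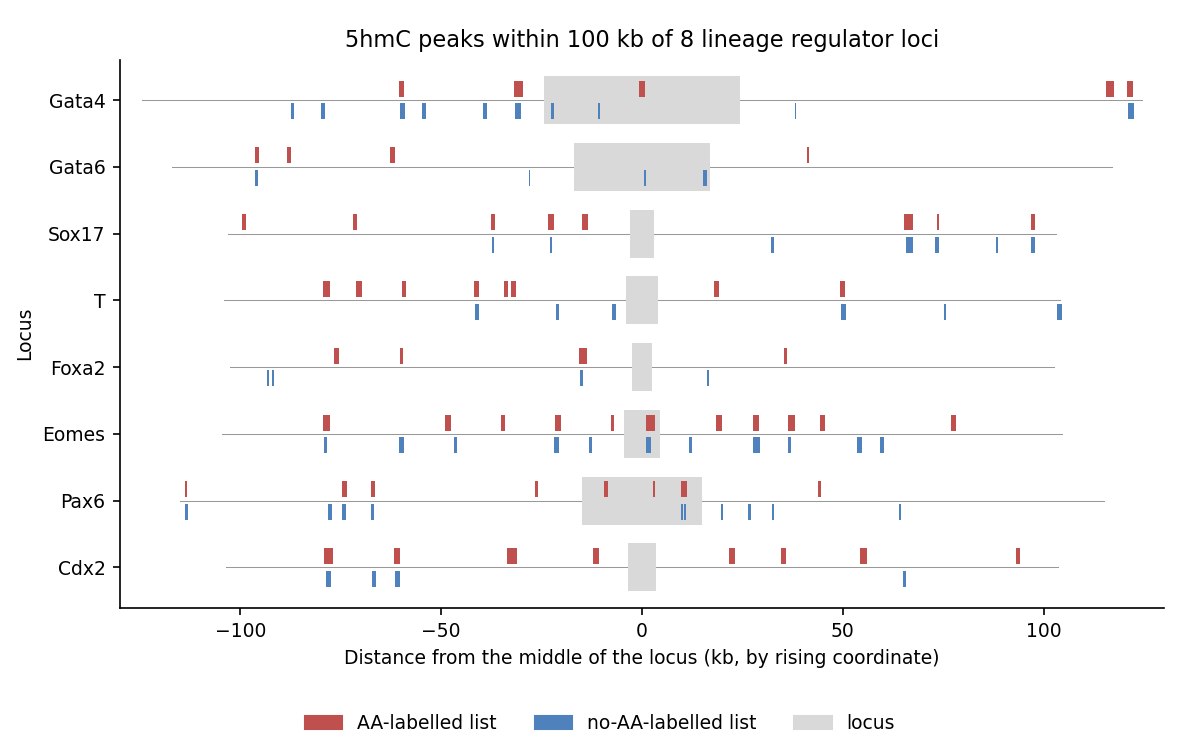
Position of every member peak, drawn to scale as distance in kb from the middle of its locus along rising coordinates, with AA-labelled peaks above and no-AA-labelled peaks below the line of each locus and the locus itself in grey. The loci of Sox17, T, Foxa2 and Cdx2 hold no peak in either list, and those of Gata4, Gata6, Eomes and Pax6 hold 1 or more.

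Inside the loci themselves, which span 148 kb, the AA-labelled list had 5 peaks and the other 7, and all lay in 4 genes. Gata4 held 1 and 2, Gata6 held 0 and 2, Eomes held 1 and 1, and Pax6 held 3 and 2. This is 3.38 AA-labelled peaks per 100 kb (1.10 to 7.88) and 4.73 no-AA-labelled peaks (1.90 to 9.75), and both intervals hold the 2.88 per 100 kb found at 50 to 100 kb from the loci in either list. Within 5 kb of a locus edge the densities were 1.25 (0.0316 to 6.96) and 2.50 (0.303 to 9.03), from 1 and 2 peaks. At 5 to 20 kb they were 4.17 (2.00 to 7.66) and 5.42 (2.88 to 9.26), and at 20 to 50 kb 3.54 (2.06 to 5.67) and 2.29 (1.14 to 4.10). The intervals of all 5 distance classes overlapped within each list, so no depletion in or beside the loci was detectable at these numbers.

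Sox17, T, Foxa2 and Cdx2 had no peak inside the locus in either list. These loci are short, 26 kb together, and a stretch of that length would hold 0.607 AA-labelled and 0.669 no-AA-labelled peaks at the mean autosomal density, or 0.833 at that of the 8 windows. Each of the 4 lay whole in a stretch that was free of peaks in both lists. That around Sox17 ran over 45.6 kb (chr1:4470461-4516078), that around Cdx2 over 32.5 kb (chr5:148104694-148137192), that around Foxa2 over 29.8 kb (chr2:147856875-147886674) and that around T over 24.3 kb (chr17:8624632-8648956). Of all autosomal bases, 49.0% lay in peak-free stretches at least as long as that of Sox17, 59.9% in ones as long as that of Cdx2, 62.7% for Foxa2 and 68.9% for T. A base taken anywhere on the autosomes had a median stretch of 44.2 kb around it (quartiles 19.5 and 105.9 kb), and of the 8 loci only Sox17 was above that median. The peak-free stretches of T, Foxa2 and Cdx2 were thus shorter than the one around the median autosomal base.

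**Figure D3:**
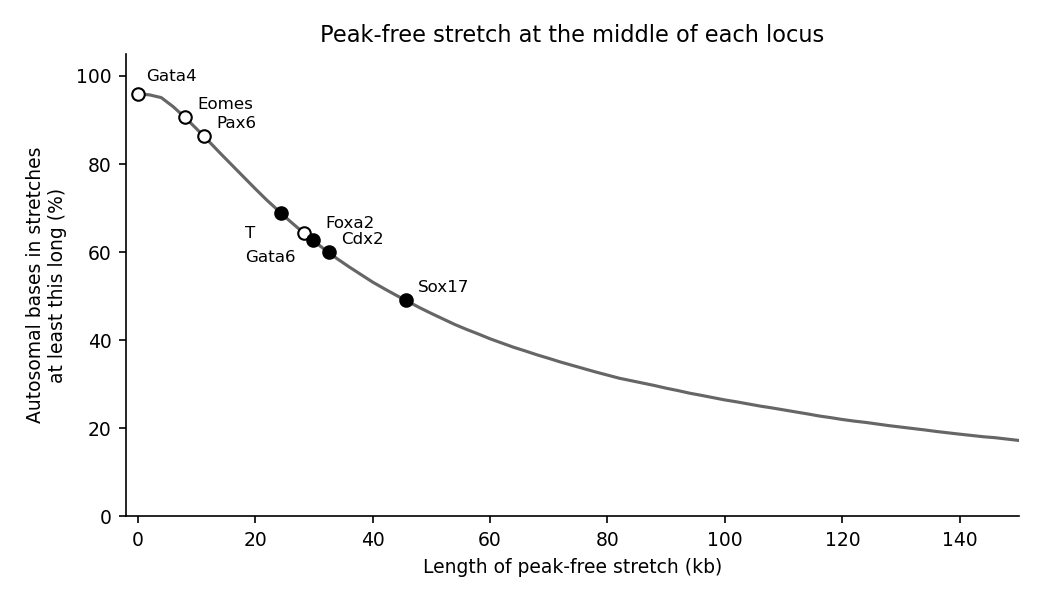
Share of autosomal bases (vertical axis, %) that lie in stretches free of peaks in both lists and at least as long as the value on the horizontal axis (kb), as a curve, with the stretch at the middle of each of the 8 loci marked on it. Filled points are the 4 loci that lie whole in their stretch (T, Foxa2, Cdx2 and Sox17, 24.3 to 45.6 kb), open points the other 4, of which the middle of Gata4 lies in an AA-labelled peak.

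The strength of the member peaks was moderate. Fold enrichment is the authors' ratio to the local background of the same library. It is not set by the tag count of a peak alone, since AA-labelled members of 12, 20 and 27 tags had the same fold of 9.9. Its median was 7.13 around the loci (6.42 to 8.19) and 7.86 over the whole AA-labelled list. In the no-AA-labelled list it was 6.33 (5.94 to 7.12) against 7.05. Folds of 10 or more were found in 8 of 56 AA-labelled members (14.3%, Clopper-Pearson interval 6.38% to 26.2%) and 6 of 56 no-AA-labelled members (10.7%, 4.03% to 21.9%), beside 21.7% and 10.4% of all peaks. The median member peak held 31 AA-labelled tags (29 to 38) and 29 no-AA-labelled tags (22 to 35), beside 27 and 28 in the whole lists. In length the AA-labelled members had a median of 1247.5 bp (1078 to 1399) against 1032 bp for that list, and the no-AA-labelled members 800.5 bp (705 to 939) against 778 bp. The AA-labelled intervals of length and tags thus lay above the medians of that list. The intervals of the fold held the median of the whole list in both, and so did those of length and tags in the no-AA-labelled list.

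A p of at most 1e-10, which is a score of 100 on the authors' scale of 10 times the −log10 of p, was found in 14 members of the AA-labelled list and 6 of the other. These are 25.0% (14.4% to 38.4%) and 10.7% (4.03% to 21.9%) of the members, beside 22.9% and 18.4% of all peaks. Their ratio was 2.33 (0.842 to 7.41), an interval that holds the ratio of 1.12 for all such peaks. Sox17 alone gave 6 of the 14 and 2 of the 6. Without it the numbers were 8 and 4. Eomes gave 3 and 1, T gave 2 and 2, Foxa2 gave 2 and 0 and Gata4 gave 1 and 1, while Gata6, Pax6 and Cdx2 had none in either list. Of the strong members, 8 of 14 AA-labelled and 5 of 6 no-AA-labelled peaks overlapped a peak of any strength in the other list, beside 76.1% and 79.3% of all strong peaks.

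Around Sox17, a factor of definitive and extraembryonic endoderm, the AA-labelled peaks were the strongest of the 8 loci. The highest score of the AA-labelled members was at chr1:4549354-4551422, 63.4 kb above the locus, with 80 tags and a score of 188.15 in the AA-labelled list. Its no-AA-labelled counterpart (chr1:4549640-4551399) had 74 tags and a score of 127.03. The highest score of the no-AA-labelled members was also here, 200.46 with 49 tags at chr1:4580980-4581956, 94.5 kb above the locus. There the AA-labelled peak had 29 tags, a score of 153.04 and the highest fold of all members, 19.80. On the lower side of the gene the AA-labelled list had 5 peaks and the other 2, and on the upper side 3 and 5. The AA-labelled peak nearest to the locus, 11.2 kb below it (chr1:4469174-4470460), held 35 tags at 15.88-fold and a score of 139.55, and the other list had no peak there. The nearest no-AA-labelled peak lay 19.6 kb below (chr1:4461183-4461672, 14 tags), where the AA-labelled list had 41 tags in a peak of 1443 bp against 490 bp.

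Gata4, a zinc-finger factor of endoderm and heart, was the locus with fewest AA-labelled relative to no-AA-labelled peaks. Inside it the lists shared no peak. The AA-labelled peak at chr14:63840859-63842250, 24.6 kb above the lower edge, held 29 tags at 4.57-fold. The no-AA-labelled peaks lay 2.24 kb (chr14:63818824-63819664, 28 tags, 5.51-fold) and 13.8 kb (chr14:63830526-63831125, 19 tags, 5.94-fold) above that edge. All 3 had scores between 50.71 and 52.56, just past the cutoff of 50. The smallest p in both lists was at one place, 97.1 kb above the locus, with 69 AA-labelled tags (chr14:63962304-63963881, score 101.57) and 91 no-AA-labelled tags (chr14:63962411-63964145, score 133.63). Gata6, a related factor of primitive endoderm, had 2 no-AA-labelled peaks inside, 17.8 and 32.7 kb above the lower edge, with 19 tags (chr18:11069533-11070078) and 28 tags (chr18:11084280-11085135). The AA-labelled list had none there, and its nearest peak lay 24.4 kb above the locus (chr18:11110187-11110699, 12 tags). The 1 shared site of Gata6 also had the smallest p in both lists, 78.8 kb below the locus, with 23 tags at 13.29-fold in the AA-labelled list and 30 tags at 9.16-fold in the other. No other protein-coding gene lay within 100 kb of Gata6 or of Foxa2 in RefSeq's annotation of GRCm38.p6. Within 100 kb of Gata4 it placed Ctsb, Fdft1 and Neil2, of Sox17 Rp1, of Eomes Golga4 and of Pax6 Elp4. T had Prr18, Gm46592, T2, LOC115486424 and Pde10a that near, and the neighbours of Cdx2 are given below. Peaks were assigned to windows and not to genes.

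Foxa2, a forkhead factor of endoderm, node and floor plate, had 1 shared site, 12.1 kb below the locus. In the AA-labelled list it was 2005 bp long (chr2:147854870-147856874) with 43 tags at 8.32-fold, and in the other 575 bp (chr2:147855123-147855697) with 19 tags at 10.67-fold. Foxa2 reads along falling coordinates, so this is its downstream side. This was the peak nearest to the locus in each list and the no-AA-labelled peak of smallest p. The AA-labelled peak of smallest p, with a score of 115.19 and 29 tags, lay 73.6 kb below the locus (chr2:147793825-147794964). The other peaks of both lists around Foxa2 held 14 to 29 tags and were not shared.

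T and Eomes, both T-box factors of gastrulation, differed in the peaks near the gene. The peak nearest to T was in the no-AA-labelled list, 2.90 kb below the locus (chr17:8623572-8624631), with 35 tags, 9.21-fold and a score of 118.71. T reads along rising coordinates, so this is the upstream side. The AA-labelled list had no peak there, and its nearest was 14.6 kb above the locus (chr17:8648957-8650182, 25 tags). Of the 8 AA-labelled peaks around T, 6 lay on the upstream side, against 3 of 6 no-AA-labelled peaks. The smallest p of the AA-labelled list was at chr17:8589237-8590292 (38 tags, score 113.55), and that of the other at chr17:8680632-8681778 (59 tags, score 169.81). A no-AA-labelled peak at 99.9 kb (chr17:8734395-8735475, 42 tags) was just inside the limit of the window, and its AA-labelled counterpart was outside by its midpoint.

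Eomes was the only one of the 8 genes with a one-to-one pair inside the locus. The AA-labelled peak (chr9:118392482-118394646) held 76 tags at 6.38-fold and a score of 135.89, the smallest p of the AA-labelled peaks around Eomes. The no-AA-labelled peak (chr9:118392446-118393782) held 47 tags at 8.42-fold and a score of 120.90, likewise the smallest p of its list there. Their midpoints lay 6.56 and 6.11 kb above the lower edge of the 9 kb locus. Eomes reads along rising coordinates, so the pair lay toward the far end of the gene from its start. Strong AA-labelled peaks without a counterpart lay 30.1 kb below (chr9:118356361-118357454, 45 tags, score 121.07) and 40.4 kb above the locus (chr9:118435836-118436996, 47 tags, score 119.64).

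Pax6, a paired-box and homeobox factor, held the most peaks inside the locus. They lay 6.06, 18.0 and 25.4 kb above the lower edge in the AA-labelled list, with 20, 12 and 31 tags (chr2:105513637-105514476, chr2:105525741-105526245 and chr2:105532622-105534086). The last of them overlapped both no-AA-labelled peaks inside the locus, which held 16 tags (chr2:105532646-105533164) and 19 tags (chr2:105533415-105534015). One AA-labelled region of 1465 bp thus stood against a pair of shorter ones in the other list. Pax6 also reads along rising coordinates, and the first 5 kb of the locus held no peak. Above the locus the no-AA-labelled list had 4 peaks of 14 to 20 tags and the AA-labelled list 1 of 15 tags, none of them shared. The smallest p was at the first peak of the locus in the AA-labelled list (score 92.95) and 59.3 kb below the locus in the other (score 88.74, 40 tags).

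Cdx2, a caudal-type homeobox factor whose neighbours within 100 kb in RefSeq's GRCm38.p6 were Pdx1, Urad and Flt3, had the most uneven numbers toward the AA-labelled list. The nearest AA-labelled peaks on either side lay 7.97 kb below (chr5:148103372-148104693, 36 tags) and 18.9 kb above the locus (chr5:148137193-148138636, 52 tags). The nearest no-AA-labelled peak was 57.4 kb below (chr5:148054015-148055267, 40 tags). Between there and 61.9 kb above the locus that list had no peak, while the AA-labelled list had 5. All 8 AA-labelled peaks had a fold between 4.52 and 7.24 and scores under 100, so none was strong. The smallest p was 74.5 kb below the locus in the AA-labelled list (score 97.71, 71 tags) and 74.6 kb below it in the other (score 73.46, 34 tags), at the same site. For a peak called in 1 list the tags of the other library are not in the files, so no ratio is given for the unshared peaks.

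The share of member peaks that both lists held did not differ from that of all peaks beyond counting error. Of the AA-labelled members, 23 of 56 overlapped a no-AA-labelled peak by at least 1 bp, or 41.1% (28.1% to 55.0%), beside 47.5% of all AA-labelled peaks. Of the no-AA-labelled members it was 25 of 56, or 44.6% (31.3% to 58.5%), beside 43.6% of all. Both intervals hold the share of the whole list. By number, Sox17 and Eomes had most shared peaks, 5 of 8 and 5 of 11 in the AA-labelled list, and Gata6 and Foxa2 fewest, 1 of 4 each. Gata4 had 3 of 5, Pax6 4 of 8, and T and Cdx2 2 of 8 each, so the order by share was another.

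Where both lists had a peak, 18 of 22 one-to-one pairs had the higher tag density in the AA-labelled library, at a median log2 ratio of 0.28. This median turned to -0.35 without scaling to library size, where 3 of the 22 pairs were higher in the AA-labelled library, and to -0.25 with scaling to the tags inside peaks, where 7 were. Over all pairs those scalings left 12.1% and 18.8% higher. Density is given as tags per kb of peak and 1000000 kept tags, with a median of 2.39 in the AA-labelled and 1.89 in the no-AA-labelled peaks of these pairs. Over pairs this median had an interval of 0.04 to 0.59, which holds the 0.22 of all 26954 pairs, of which 75.2% were higher in the AA-labelled library. None of the 22 pairs was more than 2-fold apart either way, beside 1.47% of all pairs in which the AA-labelled density was over 2-fold higher and 0.0223% in which it was over 2-fold lower. In the authors' fold enrichment, which is relative to each library's own background, the median log2 ratio was 0.09 in these pairs and 0.21 over all pairs. The AA-labelled peak was the longer one in 15 of the 22 (68.2%), beside 76.2% of all pairs. The summits of a pair lay a median of 108 bp apart (quartiles 56.2 and 292 bp), against 113 bp over all pairs.

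**Figure D4:**
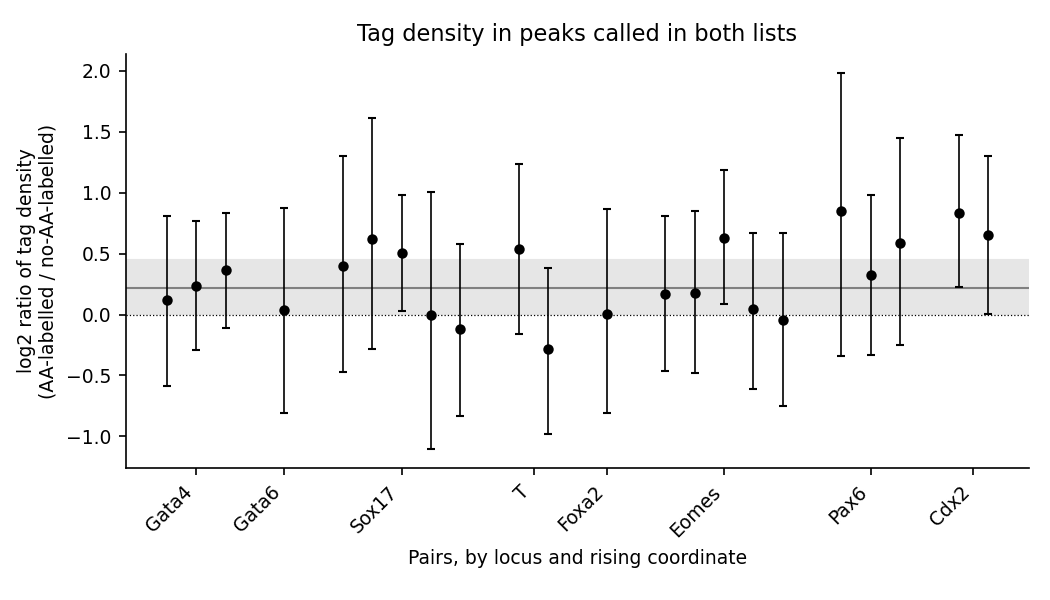
Log2 ratio of tag density, AA-labelled over no-AA-labelled, for each of the 22 one-to-one pairs by locus, with 95% conditional exact intervals from the tag counts. The line and grey band give the median (0.22) and quartiles of all 26954 pairs, and 18 of the 22 points lie above the dotted line at 0, a count that falls to 3 without scaling to library size.

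Among single pairs the ratios ran from -0.29 to 0.85, and 21 of the 22 intervals held the median of all pairs. The exception was the lower end of the Cdx2 window (chr5:148036394-148038515), with 71 tags over 2122 bp in the AA-labelled list, 34 tags over 1174 bp in the other, densities of 2.81 and 1.57 and a log2 ratio of 0.84 (0.23 to 1.47). The second Cdx2 pair had 46 and 40 tags and a log2 ratio of 0.65 (0.01 to 1.30). Without scaling to library size these ratios were 0.21 (-0.40 to 0.84) and 0.02 (-0.62 to 0.67), with 0 inside both intervals. The highest ratio, 0.85 (-0.34 to 1.98), was at the lower end of the Pax6 window (chr2:105409292-105409704) and rested on 12 and 18 tags. The other Pax6 pairs had 0.32 and 0.59.

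The pair inside Eomes had densities of 2.95 and 1.91 and a log2 ratio of 0.63 (0.08 to 1.18), the highest of the 5 Eomes pairs, of which the lowest was -0.05. The strongest AA-labelled peak of Sox17 had 3.25 against 2.29 and a log2 ratio of 0.51 (0.03 to 0.98). These, with both Cdx2 pairs, were the 4 of 22 pairs whose interval lay above 0 when scaled to kept tags, beside 11.1% of all pairs. Without scaling, or with scaling to the tags inside peaks, no member pair had its interval above 0, and 2 and 1 had it below. The 5 Sox17 pairs ranged from -0.12, at the peak of the highest no-AA-labelled score, to 0.62. The lowest ratio of all, -0.29 (-0.98 to 0.38), was at T (chr17:8680375-8681436, 29 against 59 tags), whose other pair had 0.54. Gata4 had 0.12, 0.24 and 0.37, Gata6 had 0.04 and Foxa2 had 0.00 in their pairs. The intervals of pairs are not adjusted for their number.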

How the data were processed

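The data were 2 peak lists, 1 for each library of mouse ES cells, with and without AA as recorded. Reads were aligned to mm9, with BWA 0.5.9-r16 and MACS 1.4.2 named in the submitters' processing notes. Peaks were called by MACS on each library alone without a control library, at a p cutoff of 1e-05, with 1 tag kept per position, per the file headers. The authors' deposited tag counts are whole tags per peak without any scaling. The −log10 p-values are deposited multiplied by 10, and the deposited fold enrichment is a ratio to the local background of the same library. A region that did not pass the cutoff is not listed and may still carry 5hmC. No molecular identifiers are named in the sources used here, so 2 tags may stem from 1 molecule.

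Loci came from the rule, and a peak was assigned by its midpoint. One-to-one pairs were peaks that each overlapped 1 peak of the other list. Autosomal windows of 200 kb ran from the first to the last peak of a chromosome, and peak-free stretches may include unassembled sequence. The positions of all 8 genes are described, with each peak inside a locus, the nearest peak and the peak of smallest p in each list, and the highest and lowest pair. RefSeq's GRCm38.p6 table gave neighbours, strand and promoters only. The members and lists were chosen with earlier results of these data known. The overlap and density code was tested on simulated data. Python 3.11.15, pandas 2.3.3, NumPy 2.4.6, SciPy 1.17.1 and matplotlib 3.10.9 were used. Alternatives were stricter cutoffs, other flanks, assignment and overlap rules, other scalings, exchanged lists and leaving out each locus.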

Additional observations from a re-analysis of the deposited data

How the results depend on the processing

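Of 106 alternatives, 16 of them (the peak density without each locus) chosen after seeing the data, 91 stayed within the interval of the value (or, for counts, within 1.5 times), 12 moved and 3 turned the sign. The log2 ratio of peak numbers, 0.00, became 1.22 with a p of at most 1e-10. Peaks per 100 kb fell from 3.20 in either list to 0.801 AA-labelled and 0.343 no-AA-labelled at that p, and to 0.458 and 0.343 with a fold of at least 10, and peaks inside the loci from 5 and 7 to 1 and 1 at that p and to 0 and 0 at that fold, since fewer peaks pass. With both lists restricted, the shared share became 66.7% of the no-AA-labelled members at that p and 25.0% of the AA-labelled members at that fold, on 6 and 8 peaks. The median log2 density ratio of 0.28 became 0.75 for tags per peak, -0.35 without scaling, -0.25 scaled to the tags inside peaks and -0.28 after exchange of the lists to fit their headers. A scaling to library size or to tags inside peaks moves every pair alike, while the exchange turns the sign of each ratio. Over all pairs, tags per peak gave 0.52 and no scaling -0.41. Leaving out each locus in turn gave -0.12 to 0.15 for the peak number, 2.92 to 3.43 peaks per 100 kb in either list, 37.5% to 43.8% and 40.8% to 47.8% for the shared shares and 0.18 to 0.37 for the density ratio. No paired analysis was possible because a single library stands for each group, which also leaves none to omit.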
